A study of Mus musculus with 9 samples.

Results

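CpG-dense 1-kb tiles of intermediate methylation were described in 9 whole-genome bisulfite libraries of the mouse nucleus accumbens, which lies in the ventral striatum and takes part in reward. A tile belonged to the set when at least 20 CpGs in it were listed in any library, every library had at least 100 calls in it, and the pooled Control level was 35 to 65%. By this rule 9412 autosomal tiles were members, 8.96% of the 105056 CpG-dense tiles with enough calls and 0.412% of the 2283079 autosomal tiles with a listed CpG. Members were chosen by the pooled Control calls, so their Control level is a description. The Susceptible libraries entered the choice through listed CpGs and the minimum of calls, not through their levels.

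The libraries came from frozen punches of male C57BL/6J mice aged 8 weeks. By the labels 5 were Control (numbers 2, 3, 4, 5 and 8) and 4 were Susceptible (numbers 2, 3, 6 and 7). Chronic social defeat paired a mouse with an aggressive CD1 breeder on 10 days. That treatment text stands beside every library, so how Control mice were handled or susceptibility was scored cannot be read from it. Nor do the labels say whether a library is 1 mouse, so the spread between libraries may in part be technical. Listed calls ranged from 313475624 to 430312082 in the Control libraries and from 432409939 to 570984634 in the Susceptible libraries. A member had a median of 693 calls per library over a median of 23 CpGs. Values by library are given below in the order Control 2, 3, 4, 5 and 8, then Susceptible 2, 3, 6 and 7.

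Most CpG-rich DNA in a mammalian cell is either unmethylated, as at promoters, or fully methylated. Levels in between are known from imprinted genes, whose alleles differ by parent, from regions where cell types of a tissue differ, and from borders between unmethylated and methylated stretches. At imprinted genes an allele inherited from a given parent carries methylation over a control region from the germ cell onward, and the other allele stays free of it. The KRAB zinc finger protein ZFP57 binds the hexamer TGCCGC when it is methylated and keeps that mark through early development. Bulk bisulfite calls do not show which molecule a call came from, and hydroxymethylcytosine reads as methylated.

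Promoters of 6 imprinted genes are shown because they lie in member tiles and let the level of the CpGs be set against the letters; they were picked with their levels known. Each is the 250 bases before the start of transcription in RefSeq (GRCm38.p6), 5′ to 3′ on the strand of the gene, in lower case, with TGCCGC or its reverse complement GCGGCA in capitals. Of the windows shown all but that of Nnat hold a match to the hexamer. The windows of Airn, Cdh15, Gnas, Kcnq1ot1, Ndn, Peg3 and Usp29 also lie in members, hold no match and are not shown. The Plagl1 promoter (a zinc finger regulator of growth) is at chr10:13090582-13090831 on the plus strand. The Mcts2 promoter (a retrogene copied from the X chromosome into an intron of H13) is at chr2:152686898-152687147 on the plus strand. The Mest promoter (an imprinted hydrolase gene) is at chr6:30737800-30738049 on the plus strand. The Nap1l5 promoter (a retrogene inside Herc3) is at chr6:58907127-58907376 on the minus strand. The Meg3 promoter (a long noncoding RNA expressed from the maternal allele) is at chr12:109540746-109540995 on the plus strand. The Nnat promoter (neuronatin, a gene inside an intron of Blcap) is at chr2:157559828-157560077 on the plus strand.
Plagl1: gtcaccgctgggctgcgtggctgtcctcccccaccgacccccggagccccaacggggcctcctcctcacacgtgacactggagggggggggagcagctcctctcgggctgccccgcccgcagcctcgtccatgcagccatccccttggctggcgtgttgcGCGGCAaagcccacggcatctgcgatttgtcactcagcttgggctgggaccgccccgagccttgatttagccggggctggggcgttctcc
Mcts2: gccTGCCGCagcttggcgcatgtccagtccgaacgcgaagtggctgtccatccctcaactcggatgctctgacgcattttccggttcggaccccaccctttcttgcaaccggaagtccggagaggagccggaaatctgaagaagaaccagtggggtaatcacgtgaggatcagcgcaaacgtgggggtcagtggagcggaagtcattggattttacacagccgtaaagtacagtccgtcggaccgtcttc
Mest: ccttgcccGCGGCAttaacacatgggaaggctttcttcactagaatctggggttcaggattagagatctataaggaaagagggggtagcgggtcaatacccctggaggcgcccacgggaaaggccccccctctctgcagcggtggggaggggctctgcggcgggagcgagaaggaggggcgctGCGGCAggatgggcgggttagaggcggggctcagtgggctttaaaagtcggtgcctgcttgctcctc
Nap1l5: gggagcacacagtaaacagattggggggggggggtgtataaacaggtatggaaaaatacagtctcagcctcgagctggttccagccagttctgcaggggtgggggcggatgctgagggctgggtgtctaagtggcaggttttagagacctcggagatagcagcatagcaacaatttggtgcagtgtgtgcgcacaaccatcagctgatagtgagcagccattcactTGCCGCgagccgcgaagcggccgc
Meg3: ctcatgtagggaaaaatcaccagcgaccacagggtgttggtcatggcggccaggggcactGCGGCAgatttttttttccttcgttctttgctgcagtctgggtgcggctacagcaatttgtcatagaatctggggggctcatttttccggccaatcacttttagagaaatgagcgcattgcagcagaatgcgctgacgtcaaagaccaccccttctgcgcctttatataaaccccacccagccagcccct
Nnat: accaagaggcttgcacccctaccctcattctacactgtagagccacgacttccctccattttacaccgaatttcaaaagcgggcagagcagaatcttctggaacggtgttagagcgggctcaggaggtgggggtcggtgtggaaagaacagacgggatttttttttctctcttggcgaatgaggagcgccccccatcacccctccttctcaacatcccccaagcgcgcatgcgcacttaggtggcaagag

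The 19 CpGs of the Plagl1 window read 49.3% in pooled Control and 56.1% in pooled Susceptible calls, and single CpGs ran from 43.8 to 69.4% in pooled Susceptible calls. The Susceptible ranges of the other windows were read from the 20 CpGs of Mcts2 (52.2 to 66.9%), the 14 of Mest (52.3 to 80.5%), the 10 of Nap1l5 (43.3 to 70.2%), the 10 of Meg3 (38.6 to 60.2%) and the 12 of Nnat (47.2 to 64.4%). In pooled Control calls they ran from 35.6 to 76.6% in Plagl1, 51.96 to 77.6% in Mcts2, 38.6 to 66.7% in Mest, 17.4 to 58.1% in Nap1l5, 27.8 to 73.9% in Meg3 and 23.8 to 100% in Nnat. Promoter windows in other members near imprinted genes also held CpGs of high level: that of Ndn ran to 100% in pooled Control calls, and that of Gm39273 from 50 to 92.4% in pooled Susceptible calls. By library, the level over the calls of a window varied as well. No listed cytosine had fewer than 10 calls, so libraries need not cover the same CpGs of a window. The 43 calls of a library at Meg3 and the 13 at Nap1l5 cannot cover all of their CpGs. Mcts2, with 518 to 1014 calls per library, ran from 46.2 to 99.8%. Meg3, with 43 to 311 calls per library, ran from 4.69 to 100%. Nap1l5, with 13 to 556 calls, ran from 26.5 to 100%. Plagl1, with 409 to 1166 calls, ran from 34.01 to 73.1%.

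TGCCGC was searched on both strands in promoter windows of 300 bases, from 250 before the start to 50 after it. It was found in 8 of the 20 windows that lie in members near imprinted genes, 40% of windows from 17 genes, some of which overlap. Windows with a match are among the overlapping ones: those of Mest overlap each other, and those of Plagl1 and Hymai share a match. The distinct sites are thus fewer than the windows. Among all 489 windows in members it was found in 9.41%, among windows in CpG-dense tiles at any level in 20.9%, and among all autosomal windows in 11.6%. The windows differ in base composition, with medians of 17 CpGs near imprinted genes, 9 in all members and 22 in CpG-dense tiles. The YY1 motif GCCATNTT was in 0 of the 20 and in 1.64% of the windows in members, against 7.32% in CpG-dense tiles and 6.03% of all autosomal windows. Letters for chromosome 18 and for tiles away from promoters were not used here.

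**Figure D1:**
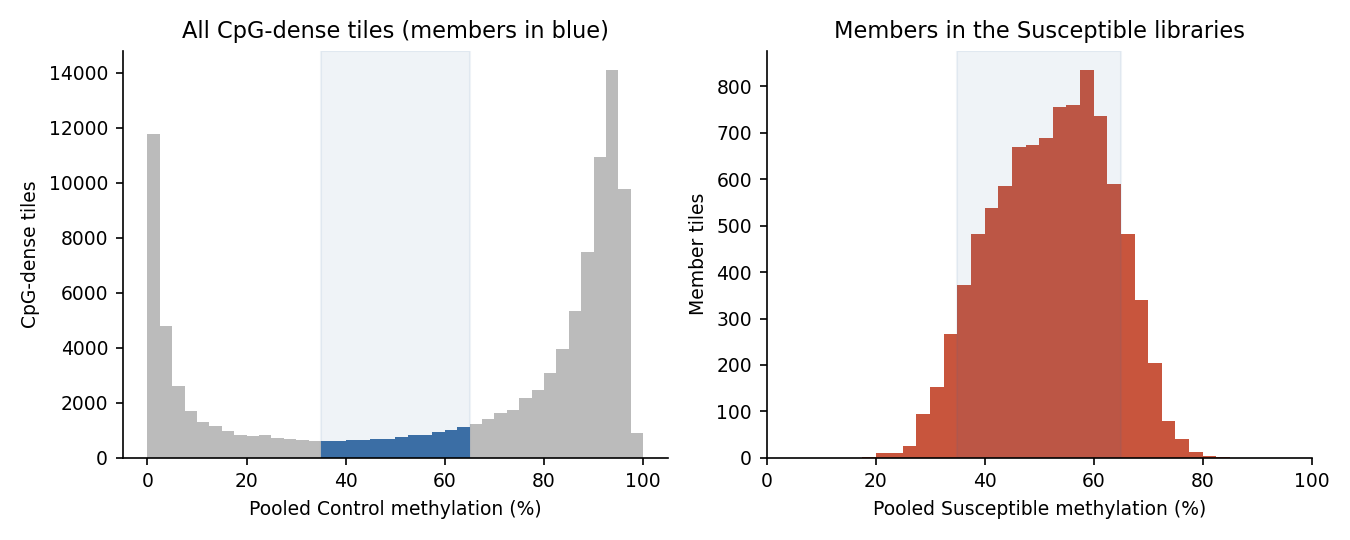
Left, the number of CpG-dense tiles (y axis) by pooled Control methylation in percent (x axis, bins of equal width), with the 9412 members in blue between 35 and 65%; right, the members by pooled Susceptible methylation in percent. CpG-dense tiles pile up near 0 and above 80%, and 81.6% of the members also lay between 35 and 65% in the Susceptible pool, whose level was not used to choose them.

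Of the 3 bands of level the intermediate one held the fewest CpG-dense tiles. There were 29433 tiles under 35% and 66211 over 65%. In the Susceptible libraries 7684 of the 9412 members, 81.6%, had a pooled level of 35 to 65%, with a median of 53.0%. All 4 Susceptible libraries were inside these bounds in 41.5% of members, and all 9 libraries in 16.8%.

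At the bounds, the members with the lowest Control level were in Gabra5 (a GABA receptor subunit, 35.006%), in Gm41019 (35.006%) and on chromosome 4 from 124189001 (35.014%). The tiles just below were in Tekt1 (34.994%), Rtn4rl1 (34.993%) and Gm40847 (34.991%). At the upper bound the last members were in Gm31437 (65%), LOC115489933 (64.998%) and Mirc35hg (64.992%). The first tiles above it were on chromosome 13 from 52702001 (65.002%), in Mest (65.003%) and in Sik3 (65.004%). A tile at the edge of the imprinted Mest region thus fell outside by a small margin.

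The position of members was set beside that of the other CpG-dense tiles. Of the 9412 members 72.7% overlapped a gene and 62.0% a protein-coding gene, against 71.1 and 62.2% of the tiles over 65% and 88.1 and 81.2% of those under 35%. On the autosomes with promoter data (chromosome 18 was not analysed here), 6.48% of members held a start of transcription, against 38.4% of CpG-dense tiles under 35% and 2.24% of those over 65%. More than 10 kb from any such start lay 54.9% of members, 22.3% of the tiles under 35% and 69.7% of the tiles over 65%. The promoter table is not complete, with no near entry for Peg10, Inpp5f or Peg13, so the shares holding a start may be too low and the distances too long. A member took its name from the shortest gene it overlaps, or else the nearest within 10 kb. The naming gene was protein-coding for 6170 members and a long noncoding RNA for 1809, and 1090 members had no gene within 10 kb. In the shares at starts and beyond 10 kb the members were closer to the dense tiles over 65% than to those under 35%. The table of genes gives bounds without exons, so exonic, intronic and UTR positions were not told apart.

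For the course of methylation within a tile, 2 shapes were counted in the pooled Susceptible calls. In 2823 members, 29.99%, at least 80% of the CpGs read between 20 and 80%, and these are called even below. In 1784 members, 18.95%, the left and right sides of the tile differed by at least 50 points, and these are called stepped. By the same Susceptible measure 0.730% of CpG-dense tiles under 35% and 1.07% of those over 65% were even, and 13.5 and 0.507% were stepped. A tile whose level is far from the middle of the scale can hardly be even. The contrast with the even share of members is thus largely set by the level rule and is a description. Neighbouring tiles varied as well, also in pooled Susceptible calls. Among 9125 members with levels on both sides, both neighbours were above 65% for 46.7%, a neighbour was below 35% and the other above 65% for 21.6%, and at least 1 neighbour was intermediate for 30.6%. An intermediate neighbour was about as common beside the tiles under 35%, at 29.3%, and less so beside those over 65%, at 10.96%.

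Runs of members were short. The members formed 8893 runs of adjoining tiles, of which 8441 were single tiles, 89.7% of members, and 52 had 3 tiles or more. The longest run was at the Gnas locus, over Gnasas1 and Gnas (chr2:174295001-174301000), with 6 tiles, 334 CpGs and pooled Susceptible levels of 50.5 to 60.6%. The next, over Gnasas1 (chr2:174283001-174288000), had 5 tiles and 227 CpGs at 50.5 to 65.04%. Gnas encodes the stimulatory G protein alpha subunit, and its locus carries several imprinted promoters. A run of 5 tiles and 138 CpGs lay over Rusc2 and Fam166b (chr4:43425001-43430000) at 51.5 to 59.3% in the Susceptible pool, outside the imprinted list. A run of 4 tiles and 290 CpGs lay over Ajm1, a gene of epithelial junctions (chr2:25576001-25580000), at 43.0 to 72.3%. The last of the 5 longest lay over Sgce and Peg10 (chr6:4746001-4750000), a pair of imprinted genes, with 4 tiles, 189 CpGs and 48.0 to 61.1%.

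Within 10 kb of 43 listed imprinted genes at 32 loci lay 81 members, 0.861% of all members (95% Wilson interval 0.693 to 1.07%, counting error only). With at least 30 CpGs in place of 20 the share was 3.35%. Of the 249 CpG-dense tiles near these genes 32.5% were members, against 8.90% of the other CpG-dense tiles. This count rests on the rule itself and is a description. A member was found at 27 of the 32 loci. The other 5 were Peg12, Igf2, Rasgrf1, Rian and Sfmbt2, where the CpG-dense tiles closest to 50% in Control were at 30.6% (Peg12), 26.0% (Igf2), 23.9% (Rasgrf1), 33.3% (Rian) and 85.1% (Sfmbt2). The Gnas locus had the most, with 13 members among 20 CpG-dense tiles. The remaining 9331 members were not near a listed imprinted gene.

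Members near imprinted genes were set beside the others in the pooled Susceptible calls, which the rule did not use. Of the 81, 72 were even (88.9%), against 29.5% of the other members, and 2.47% were stepped, against 19.1%. An intermediate neighbour was present for 84.4% against 30.2%. The pooled Susceptible level was 35 to 65% in 77 of the 81 (95.1%) and in 81.5% of the others, and all 4 Susceptible libraries were inside these bounds in 69.1% against 41.3%. These are counts over tiles that share loci and libraries, and no test was made of them. The tiles near imprinted genes also had more CpGs, a median of 42 against 23, and the part of CpG number in these shares was not tested.

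Loci whose paternal allele is known to be methylated were led by H19, a long noncoding RNA expressed from the maternal allele. Its tile with the most CpGs (chr7:142580001-142581000, 37 CpGs), 1855 bp from the gene bounds, read 55.7, 61.95, 60.7, 53.8 and 71.3% in the Control libraries and 57.1, 60.05, 61.9 and 60.98% in the Susceptible libraries. The Susceptible values lay inside the Control range, with means of 60.7% ± 6.82 (SD, n = 5) against 60.01% ± 2.06 (SD, n = 4). Meg3, the maternal noncoding RNA of the Dlk1 cluster, read 48.5, 64.2, 59.9, 68.5 and 50.1% in the Control libraries and 53.9, 50.7, 59.7 and 48.9% in the Susceptible libraries in its tile (chr12:109541001-109542000, 38 CpGs). All 4 Susceptible values lay inside the Control range there too. Dlk1, a Notch-family ligand expressed from the paternal allele, had 1 member in the gene (chr12:109459001-109460000, 42 CpGs), which read 63.9, 55.9, 43.2, 45.7 and 52.1% in the Control libraries and 50.3, 37.6, 43.4 and 22.3% in the Susceptible libraries. The lowest of these 9 values was Susceptible 7, and the groups overlapped. Zdbf2, a paternally expressed gene, read 60.03, 60.1, 44.6, 65.1 and 68.3% in the Control libraries and 55.01, 67.5, 46.9 and 59.7% in the Susceptible libraries (chr1:63264001-63265000, 32 CpGs), and its groups overlapped over nearly their whole ranges.

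Control regions known to be methylated on the maternal allele made up most of the other loci. Peg3, a zinc finger gene with a role in maternal care, shares its region with Usp29. Its tile (chr7:6730001-6731000, 46 CpGs) read 55.99, 51.3, 48.3, 60.9 and 67.7% in the Control libraries and 48.8, 45.4, 53.2 and 47.9% in the Susceptible libraries. Every one of its 46 CpGs was between 20 and 80% in the pooled Susceptible calls. The Susceptible values covered the lower part of the Control range and passed below it, with means of 56.8% ± 7.75 (SD, n = 5) against 48.8% ± 3.24 (SD, n = 4). Snrpn, whose region controls the cluster lost in Prader-Willi syndrome, read 47.9, 47.9, 58.4, 62.6 and 69.6% in the Control libraries and 49.2, 59.4, 52.3 and 39.2% in the Susceptible libraries in the tile over Snurf (chr7:60004001-60005000, 35 CpGs). Its 9 values overlapped between the groups. Kcnq1ot1, the antisense RNA that silences its cluster in cis, read 58.6, 48.5, 49.7, 48.8 and 65.2% in the Control libraries and 56.7, 55.5, 47.9 and 62.7% in the Susceptible libraries (chr7:143295001-143296000, 63 CpGs), again with overlapping groups. Grb10, a signalling adaptor expressed from the paternal allele in neurons, read 52.8, 62.5, 41.7, 73.7 and 60.1% in the Control libraries and 59.1, 58.1, 52.1 and 56.3% in the Susceptible libraries in a tile of 101 CpGs (chr11:12026001-12027000). Control 4 and Control 5 were the lowest and highest of its 9 values, and the Susceptible libraries lay between them from 52.1 to 59.1%.

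The Gnas tile with the most CpGs holds starts of Gnas transcripts and lies over Gm30189 (chr2:174327001-174328000, 79 CpGs), and read 50.1, 56.9, 59.9, 62.6 and 51.7% in the Control libraries and 52.7, 50.3, 48.6 and 51.96% in the Susceptible libraries. The groups overlapped, with means of 56.2% ± 5.30 (SD, n = 5) against 50.9% ± 1.83 (SD, n = 4). Mest read 47.6, 61.2, 41.5, 71.7 and 41.5% in the Control libraries and 52.2, 59.8, 54.5 and 53.01% in the Susceptible libraries (chr6:30738001-30739000, 66 CpGs), with the Susceptible libraries inside a wider Control range. Zrsr1, a splicing factor retrogene inside Commd1, read 51.99, 59.3, 52.5, 50.4 and 45.2% in the Control libraries and 54.7, 49.5, 54.1 and 51.3% in the Susceptible libraries (chr11:22972001-22973000, 73 CpGs). All its values but Control 3 and Control 8 lay between 49.5 and 54.7%.

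Nnat, read in the tile after the promoter shown above (chr2:157560001-157561000, 57 CpGs), gave 57.7, 52.3, 53.7, 51.3 and 23.96% in the Control libraries and 54.3, 54.8, 57.6 and 67.3% in the Susceptible libraries. Control 8 stood far below the other 8 libraries. Inpp5f, which holds an imprinted retro-promoter in an intron, read 56.8, 60.7, 55.3, 77.1 and 29.1% in the Control libraries and 57.2, 55.1, 55.6 and 44.7% in the Susceptible libraries (chr7:128688001-128689000, 55 CpGs). Control 5 and Control 8 were its extremes on either side. The tile of the Airn start inside Igf2r, the insulin-like growth factor II receptor gene, read 58.1, 55.3, 72.7, 43.8 and 63.3% in the Control libraries and 60.6, 60.4, 60.3 and 75.5% in the Susceptible libraries (chr17:12741001-12742000, 51 CpGs). Susceptible 7 was its highest value and Control 5 its lowest. At these loci the extremes were single libraries and not a group.

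Other wide loci were Mcts2, which ran from 44.6 to 82.3% over the 9 libraries, and Nap1l5, from 47.2 to 85.1%. Peg10, a retrotransposon-derived placental gene, ran from 50.6 to 68.2%, Peg13 from 43.1 to 58.4% and the amino acid transporter gene Slc38a4 from 53.8 to 73.5%. Lower levels were read at genes of the Prader-Willi cluster away from its control region. Ndn ran from 38.1 to 51.3%, Magel2 from 31.98 to 44.6% and Mkrn3 from 26.1 to 49.1%. Cdkn1c, a cell cycle inhibitor with 113 CpGs in its tile, ran from 28.9 to 47.3%. The tile near Fkbp6 lies over Trim50 and ran from 36.8 to 46.3%, but only 58.3% of its CpGs were between 20 and 80%, so it was not even.

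**Figure D2:**
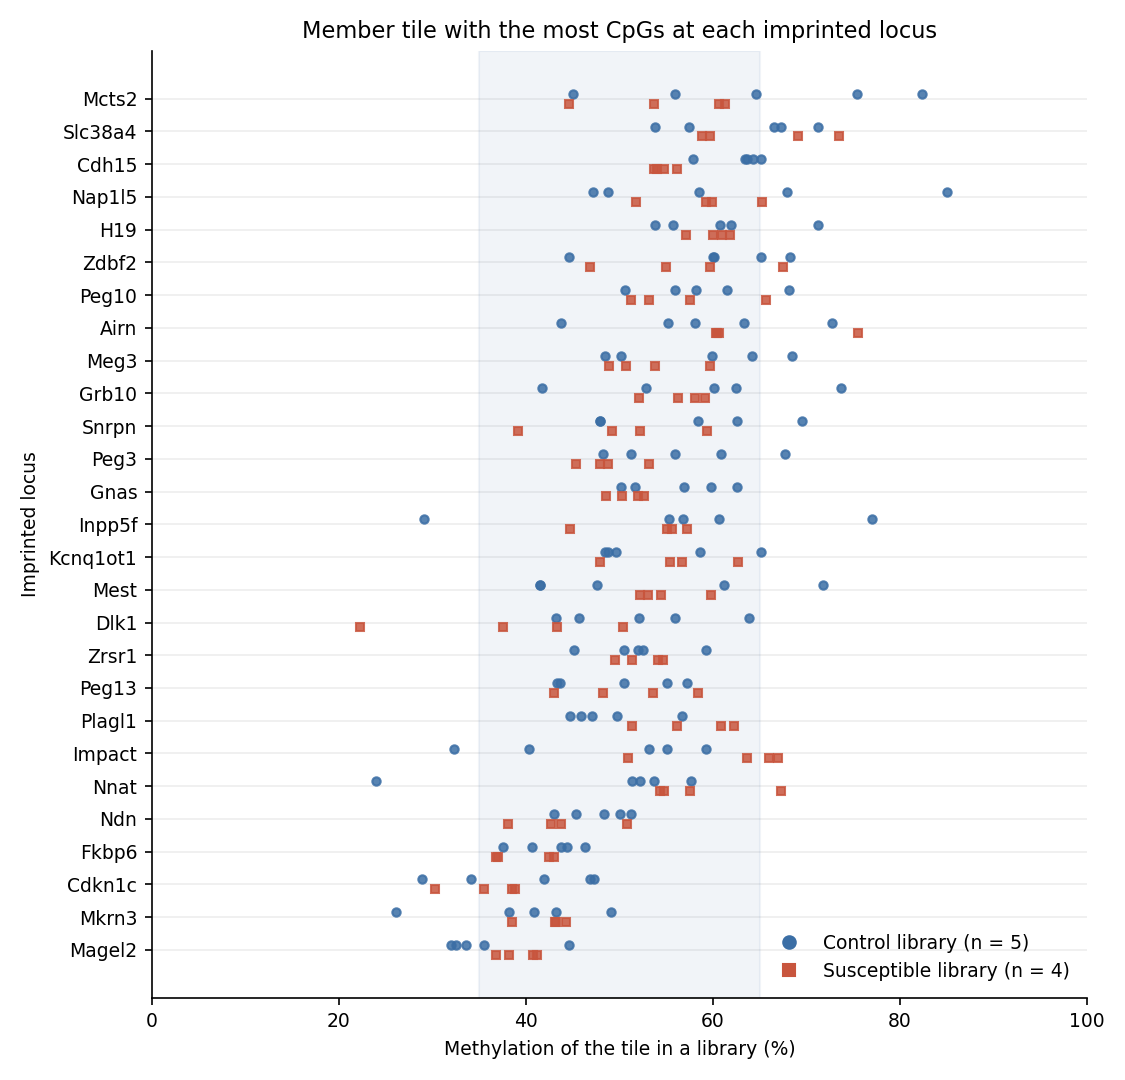
Methylation in percent (x axis) of the member tile with the most CpGs at each of the 27 imprinted loci (y axis, ordered by the Control mean), 1 point per library (blue circles, 5 Control; red squares, 4 Susceptible; shaded band, 35 to 65%). The groups overlap at every locus shown except Cdh15, and the Control points spread more widely than the Susceptible points at Inpp5f, Grb10 and Mest.

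Of the 81 members near imprinted genes 1 had groups that did not overlap, 1.23% of them, against 1.56% of all 1033962 tiles tested. It lies over the noncoding gene Gm39273 near Cdh15, a cadherin gene (chr8:122870001-122871000, 44 CpGs), and read 65.1, 63.4, 57.9, 63.6 and 64.3% in the Control libraries and 56.2, 54.8, 53.7 and 54.04% in the Susceptible libraries. Means were 62.9% ± 2.88 (SD, n = 5) against 54.7% ± 1.08 (SD, n = 4), and every Susceptible library was below every Control library. The tile was not even: 61.4% of its CpGs read 20 to 80% and 25% over 80% in pooled Susceptible calls, and its neighbours were at 87.5 and 83.95%. Its unadjusted p was 0.000835 in the quasi-binomial model (0.00132 without moderation, 0.150 with limma) and its adjusted p over all tiles 0.997, so it was not called. A second locus with a larger difference was Impact, a translational regulator on chromosome 18 (chr18:12973001-12974000, 72 CpGs), which read 55.1, 53.2, 59.3, 32.4 and 40.3% in the Control libraries and 66.9, 66, 63.6 and 50.9% in the Susceptible libraries. Its groups overlapped through Susceptible 7, with means of 48.1% ± 11.3 (SD, n = 5) against 61.9% ± 7.42 (SD, n = 4) and an unadjusted p of 0.00221 (0.0613 without moderation, 0.0932 with limma; adjusted p 0.997). Plagl1, over the promoter shown above, read 47.1, 44.7, 56.7, 49.8 and 45.9% in the Control libraries and 62.3, 51.4, 60.9 and 56.1% in the Susceptible libraries in its tile of 60 CpGs (chr10:13090001-13091000). Its unadjusted p was 0.000607 (0.0196 without moderation, 0.164 with limma; adjusted p 0.997), with overlap between Control 4 and Susceptible 3 and 7. Dlk1, given above, differed about as much in the other direction, with means of 52.2% ± 8.29 (SD, n = 5) against 38.4% ± 11.9 (SD, n = 4). Its unadjusted p was 0.00899 in the quasi-binomial model (0.105 without moderation, 0.0976 with limma, adjusted p 0.997). In the quasi-binomial model 7 of the 81 were at an unadjusted p under 0.05, 8.64%, against 4.37% of all tiles and 13.7% of all members. Over the 81 members the Control libraries averaged 53.5% ± 1.11 (SD, n = 5) and the Susceptible libraries 53.3% ± 0.653 (SD, n = 4).

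**Figure D3:**
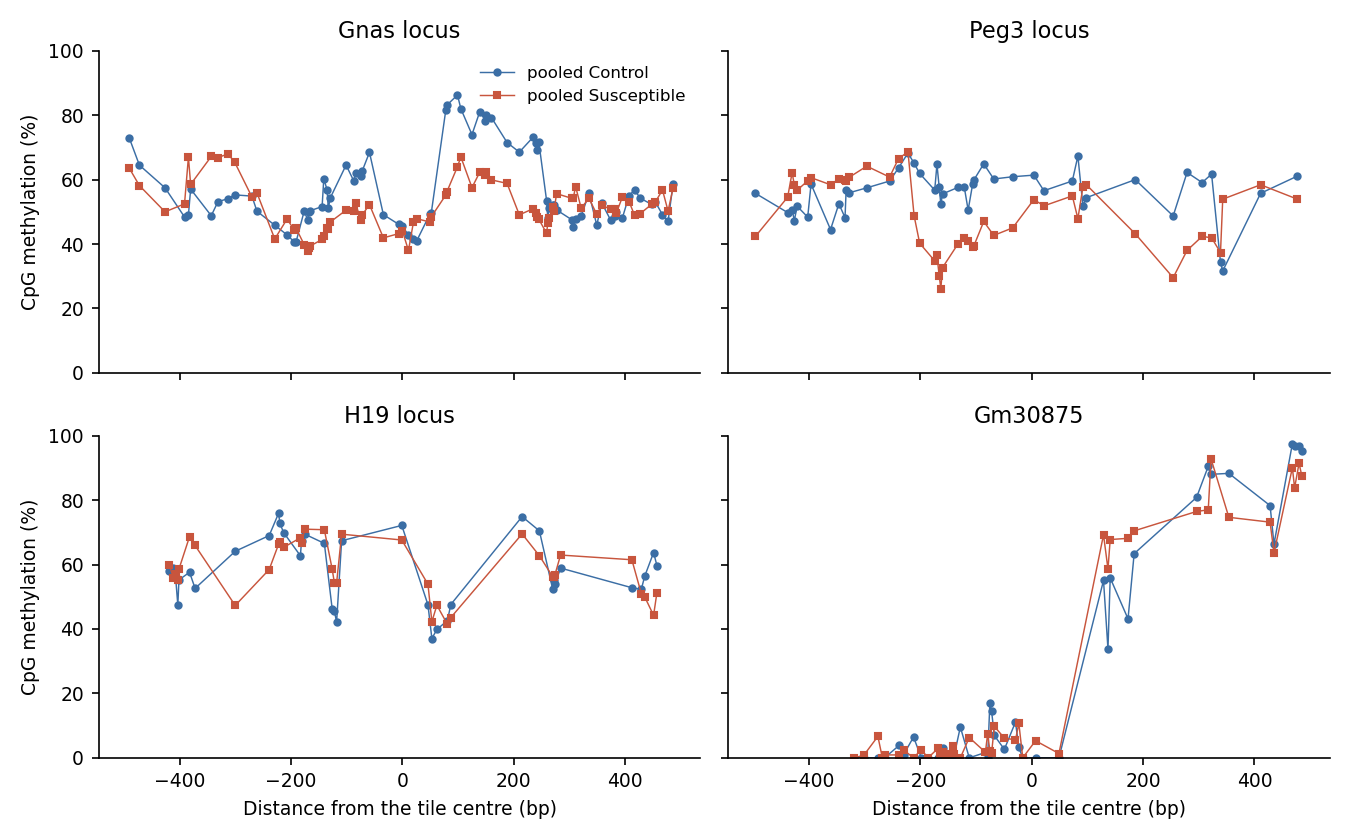
CpG methylation in percent (y axis) by distance from the tile centre in bp (x axis) in 4 member tiles, in pooled Control (blue circles) and pooled Susceptible calls (red squares). The CpGs of the Gnas, Peg3 and H19 tiles stay between 20 and 90% across the tile, whereas those of the Gm30875 tile pass from near 0 to above 80%.

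The spread between libraries was wide in members. The median SD over the 9 libraries was 8.33 points, against 1.94 points from binomial counting alone, 3.14 points in all CpG-dense tiles and 5.17 points in all tiles tested. Tiles of 3 to 19 CpGs at an intermediate level had 9.84 points with fewer calls (median 312 per library, against 693). The dispersion, which is 1 for binomial counting, had a median of 18.4 in members and 8.34 in all CpG-dense tiles, which had a similar number of calls (median 789 per library). It was 11.6 in the intermediate tiles of 3 to 19 CpGs and 6.33 in all tiles tested, which had fewer (median 250). A level near the middle of the scale has room for a larger SD, which the dispersion takes into account, though it also grows with the calls per tile. The SD was under 5 points in 843 members and over 20 points in 30. The median SDs over the Control and over the Susceptible libraries were 8.43 and 6.60 points. Near imprinted genes the median SD over the 9 libraries was 7.46 points and the median dispersion 27.8. Libraries need not list the same CpGs of a tile, and the part of this in the spread was not tested.

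Where the outlying value fell was uneven across libraries. Control 5 was farthest from the median of the 9 in 26.7% of members, Susceptible 7 in 23.4% and Control 8 in 21.4%, against 1.477 to 7.82% for each of the other 6. Control 5 was the highest of the 9 in 23.2% of members and the lowest in 20.1%, and Control 8 in 17.6 and 19.1%. Susceptible 7 was lowest in 26.9% and highest in 11.5%. In Control 5 and Control 8 the strands of a CpG also disagreed the most, by factors of 16.9 and 17.9 over binomial counting, against 2.498 to 5.71 in the other libraries. Susceptible 7, at 3.48, did not share this. It was at least 20 points below the median in 692 members and at least 20 points above it in 337. Near imprinted genes Control 5 was farthest in 26 of 81 members, Control 8 in 21, Control 4 in 12 and Susceptible 7 in 10. Without Control 5, Control 8 and Susceptible 7, an alternative added after the data were seen, the median SD over the remaining 6 libraries was 5.94 points.

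**Figure D4:**
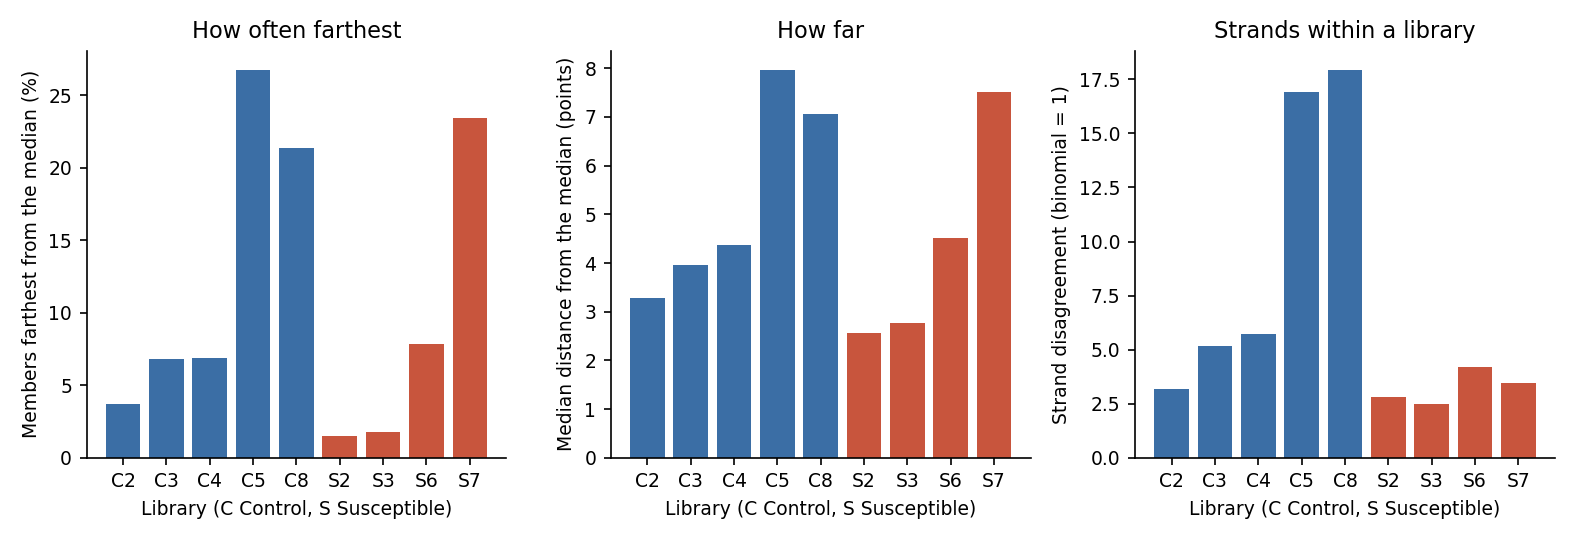
For each library (x axis; blue Control, red Susceptible), the percent of members in which it was farthest from the median of the 9 (left), its median distance from that median in points (middle), and the disagreement between strands of a CpG as a factor of the binomial value (right). Control 5, Control 8 and Susceptible 7 are high in the first 2 panels, and Control 5 and Control 8 alone in the last.

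The 5 widest members had 20 to 27 CpGs and at most 661 calls in any library. A library's level covers only the CpGs listed in that library, and these can differ between libraries. The tiles at Cntnap3 and Supt4a were stepped, with 65.96 and 68.96 points between their sides in pooled Susceptible calls. The part of the listed CpGs in the extreme values below was not tested. The tile at Cntnap3, a contactin-associated cell adhesion gene (chr13:64904001-64905000), read 15.9, 34.6, 34.02, 100 and 50.3% in the Control libraries and 16.5, 11.3, 24.7 and 28.3% in the Susceptible libraries. Control 5, at 100%, was alone at the top. The tile 2416 bp from Slc35e2, a solute carrier gene (chr4:155598001-155599000), read 89.5, 68.6, 88.97, 14.5 and 81.6% in the Control libraries and 75.3, 83.5, 81.7 and 93.3% in the Susceptible libraries, with Control 5 alone at the bottom. Supt4a, a transcription elongation factor gene (chr11:87738001-87739000), read 59.2, 29.1, 41.7, 97.9 and 79.4% in the Control libraries and 56.6, 21.2, 51.7 and 57.5% in the Susceptible libraries, with the highest value in Control 5 and the lowest in Susceptible 3. Tenm3, a teneurin that guides neuronal wiring (chr8:48414001-48415000), read 49.02, 75.3, 45.1, 22.5 and 17.9% in the Control libraries and 64.5, 74.3, 72.5 and 80.5% in the Susceptible libraries, with Control 5 and Control 8 low. The fifth tile, with no gene within 10 kb (chr6:128597001-128598000), ran from 14.03 to 74.1%.

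The 5 steadiest members had SDs of 1.67 to 1.87 points over the 9 libraries, and 2 of them lay in the gamma protocadherin cluster. Clustered protocadherins are cell surface proteins whose promoters are chosen differently in single neurons, which gives each neuron its own set. The Pcdhga11 tile (chr18:37757001-37758000, 36 CpGs) read 52.5, 51.1, 49.7, 53.8 and 52.1% in the Control libraries and 55.5, 51.6, 53.2 and 53.1% in the Susceptible libraries. The Pcdhgb4 tile (chr18:37722001-37723000, 55 CpGs) read 62.7, 66.6, 63.8, 65.1 and 64.6% in the Control libraries and 67.6, 68.6, 65.04 and 64.4% in the Susceptible libraries. In both tiles all 9 libraries lay in a narrow range, 49.7 to 55.5% and 62.7 to 68.6%, and the groups overlapped. Kdm6b, an H3K27 demethylase gene (chr11:69399001-69400000, 65 CpGs), ran from 54.96 to 59.8%, and Zfp996, a zinc finger gene (chr12:18387001-18388000, 85 CpGs), from 33.1 to 38.2%. In a tile on chromosome 12 with no gene within 10 kb (chr12:21898001-21899000, 58 CpGs) the groups did not overlap, at 61.9% ± 1.49 (SD, n = 5) against 64.2% ± 0.666 (SD, n = 4), with an unadjusted p of 0.105.

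Across the clustered protocadherins 47 of 57 genes had a member within 10 kb, 82.5%, against 33.5% of the 17290 protein-coding genes with a CpG-dense tile. Neighbouring genes of the cluster share tiles, so these are 54 tiles. Their median SD over the 9 libraries was 4.54 points, and their mean level by library was 51.4, 52.2, 51.2, 50.9, 53.4, 53.4, 53.5, 53.1 and 51.8%. No library stood apart in them. The member with the most CpGs, over Pcdhgb5 (chr18:37732001-37733000, 70 CpGs), read 51.8, 54.8, 51.2, 53.6 and 44.1% in the Control libraries and 55.9, 52.2, 49.8 and 48.1% in the Susceptible libraries. Other families gave smaller shares: 0 of 39 Hox genes, 77 of 357 Zfp genes (21.6%), 4 of 201 olfactory receptor genes (1.99%) and 0 of 70 vomeronasal receptor genes with a CpG-dense tile had a member.

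The largest member by CpGs among the Zfp genes, over Zfp316 (chr5:143254001-143255000, 108 CpGs), ran from 60.1 to 69.97% over the 9 libraries, and that near the pseudogene Olfr278-ps1 (chr15:98504001-98505000, 27 CpGs) from 35.2 to 59.5%. Of 24 germline genes, which brain cells keep methylated, 4 had a member, Tdrd1, Piwil1, Piwil2 and Dppa3. That was 16.7%, against 33.5% of all protein-coding genes with a CpG-dense tile. Tdrd1, a gene of the piRNA pathway (chr19:56826001-56827000, 54 CpGs), read 75.4, 63.5, 62.01, 49.5 and 56.2% in the Control libraries and 62.5, 70.6, 63.8 and 77.7% in the Susceptible libraries, and the groups overlapped. Of 10 genes near intracisternal A particles known to vary in methylation between inbred mice, 5 had a member (50%, against the same 33.5%): Eps8l1, Pink1, Bmf, Ect2l and Rnf157. Of these, Ect2l and Bmf are given in full after their values were seen. The Ect2l tile (chr10:18197001-18198000, 21 CpGs) read 18.4, 70.1, 62.3, 31.9 and 38.5% in the Control libraries and 49.2, 41.6, 50.2 and 43.5% in the Susceptible libraries, and Control 2 and Control 3 were its lowest and highest values. The Bmf tile (chr2:118544001-118545000, 24 CpGs), at a pro-apoptotic BH3 gene, read 42.4, 33.5, 53.4, 57.4 and 37.1% in the Control libraries and 48.1, 41.98, 50.98 and 24.2% in the Susceptible libraries. The member with the most CpGs, over Rnf157 (chr11:116342001-116343000, 33 CpGs), was steady at 56.9 to 65.4%. The median SD over the 11 members near these genes was 10.02 points, against 8.33 over all members. Positions of the particles were not used, so these tiles need not hold or adjoin one.

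Some genes held many members, and those named here were chosen after their values were seen. Rbfox3, which encodes the neuronal marker NeuN, overlapped 23 members among 64 CpG-dense tiles. Bcl11b, a transcription factor of striatal projection neurons, overlapped 17 of 43, and Pde10a, a phosphodiesterase enriched in the same neurons, 16 of 34. Gse1 overlapped 18 of 118 and Trio 15 of 70. The means over the members of Bcl11b were 48.1, 50.4, 48.2, 42.6 and 45.3% in the Control libraries and 43.02, 45.1, 56.2 and 64.2% in the Susceptible libraries. Those of Pde10a were 49.6, 52.3, 58.01, 52.9 and 58.8% in the Control libraries and 54.7, 50.1, 69.5 and 72.7% in the Susceptible libraries. In both genes Susceptible 6 and Susceptible 7 were the highest libraries. Rap1gap, a GTPase-activating protein gene with 12 members among 21 CpG-dense tiles, gave means of 53.1, 50.9, 52.1, 52.8 and 53.3% in the Control libraries and 52.5, 52.7, 62.2 and 64.9% in the Susceptible libraries, again with Susceptible 6 and Susceptible 7 highest. Over Rbfox3 the means ran from 52.3 to 58.4% and over Gse1 from 46.6 to 57.8%, with Susceptible 7 lowest over Gse1.

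Of 16 neuron genes 8 had a member: Rbfox3, Syt1, Gad1, Drd1, Drd2, Ppp1r1b, Rgs9 and Bcl11b. That was 50%, against 33.5% of all protein-coding genes with a CpG-dense tile. Rbfox3 and Bcl11b had 69 and 50 CpG-dense tiles within 10 kb, and more such tiles leave more room for a member. Over the 53 tiles near the 8 genes the mean by library was 50.8, 52.8, 51.9, 48.1, 48.4, 49.98, 50.01, 57.8 and 59.5%. The member with the most CpGs, in Rbfox3 (chr11:118891001-118892000, 41 CpGs), read 64.2, 61.3, 57.6, 44.8 and 46.4% in the Control libraries and 60.8, 57.4, 68.3 and 61.5% in the Susceptible libraries, with Control 5 and Control 8 lowest. Susceptible 7 was the highest library in 24 of these 53 tiles and the lowest in 6, whereas over all 9412 members it was highest in 1079 and lowest in 2530. Of those 24 tiles 13 were among the 19 tiles of Bcl11b, so the tally rests largely on that gene. In the 23 tiles of Rbfox3 Susceptible 7 was highest in 6 and lowest in 6, and it was not highest in the tiles of Syt1, Gad1 and Drd2. Susceptible 6 was highest in 7 of the 53 tiles, against 1494 of the 9412 members, and its mean over all members, 54.96%, was already the highest of the 9 libraries. Drd1, Drd2 and Ppp1r1b are given in full after their values were seen. At Drd1, the dopamine receptor of direct pathway neurons (chr13:54053001-54054000, 21 CpGs), the levels were 64.1, 63.8, 67.7, 49.7 and 28.2% in the Control libraries and 60.1, 64.5, 62.05 and 84.6% in the Susceptible libraries. Control 8 was the lowest there and Susceptible 7 the highest. At Drd2, the receptor of indirect pathway neurons (chr9:49341001-49342000, 20 CpGs), they were 33.2, 37.6, 47.7, 59.1 and 9.80% in the Control libraries and 49.4, 43.5, 45.6 and 42.3% in the Susceptible libraries. Control 5 and Control 8 were its extremes, and Susceptible 7 lay with the others. At Ppp1r1b, which encodes DARPP-32 (chr11:98352001-98353000, 22 CpGs), they were 41.5, 50.8, 78.05, 40.96 and 43.3% in the Control libraries and 42.8, 50.3, 69.4 and 86.3% in the Susceptible libraries. The highest values were Susceptible 7, Control 4 and Susceptible 6.

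Glial and vascular genes were read the same way. Of the genes with a CpG-dense tile, 5 of 11 oligodendrocyte, 4 of 9 astrocyte, 3 of 9 microglia and 4 of 5 endothelial genes had a member. These shares were 45.5, 44.4, 33.3 and 80%, against 33.5% of all protein-coding genes with such a tile. The mean over the 6 tiles near astrocyte genes was 51.5, 46.3, 51.6, 55.7, 54.97, 53.6, 53.8, 53.8 and 42.2% by library, and over the 5 tiles near microglia genes 50.8, 52.5, 42.8, 53.03, 51.3, 51.4, 51.3, 50.4 and 39.5%. Susceptible 7 was the lowest library in both, and also over the 11 tiles near endothelial genes, at 47.1%. Over the 12 tiles near oligodendrocyte genes it was not, at 55.2%, with Control 8 at 52.3%. Susceptible 7 was also the lowest library over all 9412 members, with a mean of 49.1%, and was lowest in 26.9% of them. By tile it was lowest in 2 of 6 near astrocyte, 2 of 5 near microglia and 4 of 11 near endothelial genes. The Gfap tile, at the astrocyte filament gene (chr11:102893001-102894000, 51 CpGs), read 54.4, 46.8, 59.7, 61.5 and 38.7% in the Control libraries and 50.6, 52.5, 46.04 and 39.6% in the Susceptible libraries. Control 8 and Susceptible 7 were its lowest values. The tile at Cldn11, a myelin claudin (chr3:31150001-31151000, 30 CpGs), ran from 28.6 to 43.9%, and that at Cldn5, the endothelial claudin (chr16:18776001-18777000, 31 CpGs), from 47.4 to 62.9%. The tile of the microglia list with the most CpGs, 7986 bp from Aif1 (chr17:35162001-35163000, 28 CpGs), ran from 32.9 to 48.9%. A punch mixes cell types, so a change within a cell type and a change in the share of cells cannot be told apart, and the part of cell makeup in these values was not tested.

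**Figure D5:**
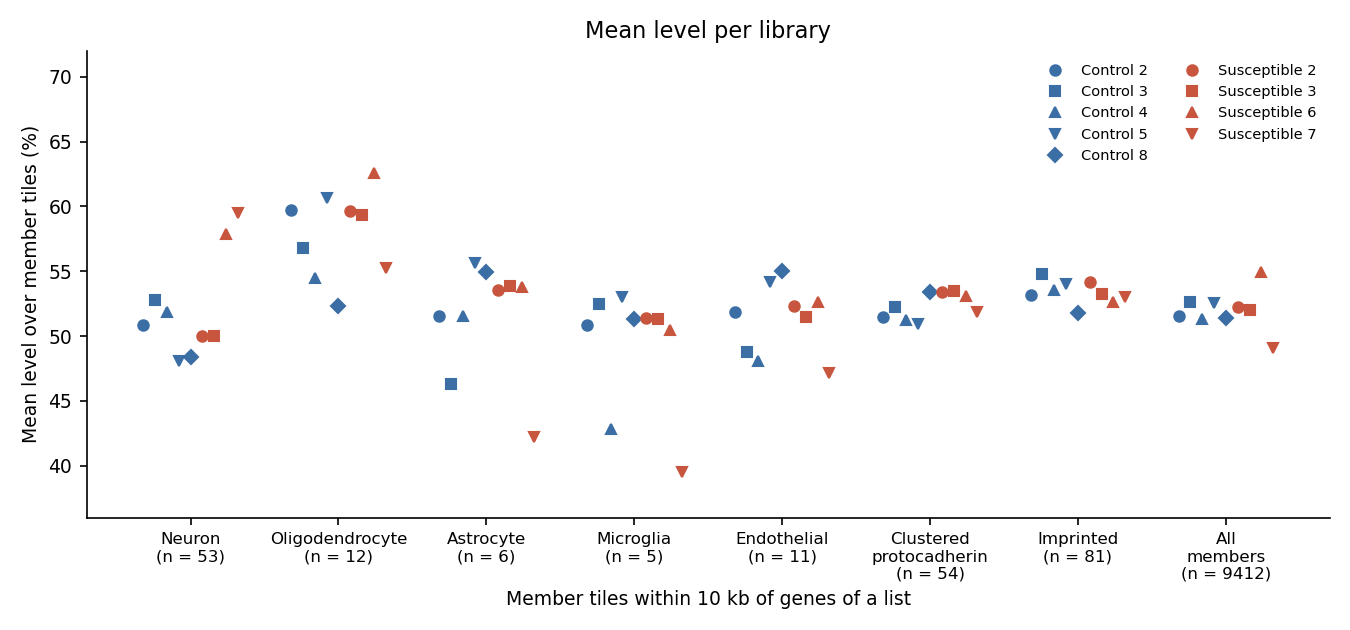
Mean methylation in percent (y axis, not from 0) over the member tiles within 10 kb of genes of each list (x axis, with the number of tiles), 1 point per library (blue Control, red Susceptible; symbols mark the library). Susceptible 6 and Susceptible 7 are the highest for neuron genes, and Susceptible 6 is also the highest over all members. Susceptible 7 is the lowest for astrocyte, microglia and endothelial genes as it is over all members. All 9 libraries lie close together for protocadherin and imprinted genes.

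Control and Susceptible libraries were compared tile by tile with a quasi-binomial model of the calls, fitted over all 1033962 autosomal tiles with enough calls. No tile reached an adjusted p under 0.05 (0.0% of all tiles), and the smallest adjusted p of a member was 0.997. With limma on logit levels and with the quasi-binomial model without moderation the count was also 0. The fit with the replicate number as a block held only Control 2, Control 3, Susceptible 2 and Susceptible 3, whose numbers both groups share. In those libraries 28 tiles were called and 8 of them were members. With a block term beside the group term, these libraries left almost nothing to estimate the dispersion of a tile. The calls of that fit thus lean on moderation of the dispersion. At an unadjusted p under 0.05 were 1290 of 9411 members tested, 13.7%, against 4.37% of all tiles, 6.58% of CpG-dense tiles and 10.6% of intermediate tiles of 3 to 19 CpGs. Of these members 790 were higher and 500 lower in the Susceptible libraries. Over all tiles 22547 were higher and 22666 lower, in CpG-dense tiles 3847 and 3069, and in the intermediate tiles of 3 to 19 CpGs 3346 and 726. Members and the intermediate tiles of 3 to 19 CpGs were chosen on the pooled Control level. That level also enters this contrast, so their counts by direction are a description. Without moderation of the dispersion the count of members was 433 (4.60%, against 4.37%), and with limma 104 (1.11%, against 3.24%). Moderation took the median dispersion of members from 18.4 to 11.0, toward that of all tiles, and the share of members at a small p depended on it.

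The groups did not overlap in 154 members, 1.64%, against 1.56% of all tiles. Susceptible libraries were higher in 83 of them (0.882%, against 0.597%) and lower in 71 (0.754%, against 0.958%). In CpG-dense tiles at any level these shares were 0.942% higher and 0.664% lower, and in intermediate tiles of 3 to 19 CpGs 1.38 and 0.350%, so the tilt to higher values was not particular to members. Group means differed by at least 10 points in 1021 members, 10.8%, against 4.08% of all tiles, 1.86% of CpG-dense tiles and 17.4% of the intermediate tiles of 3 to 19 CpGs. The mean level over all members was 51.6, 52.6, 51.3, 52.5 and 51.4% in the Control libraries and 52.2, 52.03, 54.96 and 49.1% in the Susceptible libraries. Susceptible 6 and Susceptible 7 stood on either side of the Control range, and the group means were 51.9% ± 0.636 (SD, n = 5) and 52.1% ± 2.39 (SD, n = 4). The difference, 0.204 points, was smaller than the spread within either group. It was 1.19 points without Susceptible 7 and -0.770 without Susceptible 6. When the pooled Susceptible level chose the members it was -0.621 points.

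The 5 members of smallest unadjusted p missed the adjusted threshold and are given for their values. The first, on chromosome 3 with no gene within 10 kb (chr3:5860001-5861000, 44 CpGs), read 32.04, 39.8, 34.9, 35.8 and 34.3% in the Control libraries and 28.3, 30.8, 25.9 and 31.7% in the Susceptible libraries. Its groups did not overlap, and its unadjusted p was 1.16e-05 (0.00975 without moderation, 0.226 with limma). It held 88740 to 175204 calls per library, far above the median member. Without the 0.1% most covered cytosines of each library the difference changed from -6.24 to 0.880 points. The noncoding gene Gm30875 (chr11:79974001-79975000, 46 CpGs) read 41.95, 49.9, 42.1, 43.9 and 41.6% in the Control libraries and 30.05, 26.9, 32.5 and 16.8% in the Susceptible libraries, with an unadjusted p of 1.26e-05. Every Susceptible library was lower, and the tile was stepped, with 67.4% of its CpGs under 20% and its right side 67.98 points above its left side in the pooled Susceptible calls. The noncoding gene Gm30528 (chr15:103060001-103061000, 42 CpGs) read 38.6, 54.9, 43.2, 25.5 and 46.6% in the Control libraries and 20.1, 27, 10.2 and 18.4% in the Susceptible libraries, with an unadjusted p of 2.55e-05. Control 5 overlapped the Susceptible range there.

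In 2 tiles the Susceptible libraries were higher. At the noncoding gene Gm46871 (chr4:130076001-130077000, 20 CpGs) the levels were 53.9, 56.5, 55.1, 49.2 and 49.1% in the Control libraries and 70.8, 60.9, 75.6 and 77.04% in the Susceptible libraries, with an unadjusted p of 4.09e-05. At the tile 814 bp from Gm30388 (chr1:154190001-154191000, 28 CpGs) they were 45.6, 43.9, 31.5, 44.8 and 40.4% in the Control libraries and 55.3, 55.2, 65.5 and 51.5% in the Susceptible libraries, with an unadjusted p of 7.29e-05. The groups did not overlap in either. For the latter 4 of the 5 tiles the unadjusted p was 0.00180 to 0.00817 without moderation and 0.00694 to 0.0301 with limma. Adjusted over all tiles, the quasi-binomial p was 0.997 for each of the 5. Without Control 5, Control 8 and Susceptible 7, 7 tiles that met the rule in the remaining 6 libraries reached an adjusted p under 0.05, among 16 over all tiles. Those named above were the chromosome 3 tile, Gm30528 (adjusted p 0.0123 each; 0.0105 to 1 for Gm30528 over its alternatives, and 7.76e-05 to 1 for chromosome 3, the lowest of both from the replicate block) and Gm30875 (0.0432, the lowest over its alternatives). The replicate block held only Control 2, Control 3, Susceptible 2 and Susceptible 3, and its adjusted p leans on moderation as said above. Over these libraries the difference at Gm46871 was 10.6 points in place of 18.3 (adjusted p 0.918 in that fit). At the tile near Gm30388 it was 10.48 points in place of 15.6 (adjusted p 0.713).

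The deepest members, named after their values were seen, included copies of ribosomal RNA sequence. In 8 members every library had more than 10000 calls. Of these, 4 lay at or near Rn18s-rs5, a copy of ribosomal RNA sequence on chromosome 17, with 184606 to 597843 calls per library. Ribosomal RNA genes are present in many copies, and calls from different copies cannot be told apart here. The tile at 39848001 to 39849000 of chromosome 17 (Rn18s-rs5, 95 CpGs) read 27.99, 45.97, 36.2, 32.6 and 31.4% in the Control libraries and 26.8, 29.9, 26.3 and 32.1% in the Susceptible libraries. The tile in Filip1l (chr16:57391001-57392000, 50 CpGs), with 107939 to 173994 calls, read 29.8, 49.7, 38.5, 35.1 and 37.2% in the Control libraries and 30.9, 33.4, 30.7 and 36.1% in the Susceptible libraries. Control 3 was the highest library in the Rn18s-rs5 tile, in the Filip1l tile and in the chromosome 3 tile above, and Susceptible 6 the lowest in the first and last of them. In the 4 Rn18s-rs5 tiles the pooled Susceptible level was lower than the pooled Control level, 31.2 against 36.3%, 34.4 against 40.1%, 30.6 against 36.8% and 28.6 against 35.4%, and the groups overlapped in all 4.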

How the data were processed

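Per the labels' protocols, DNA of frozen punches was column-purified with RNase and turned into bisulfite libraries by a Pico Methyl-seq kit (Zymo). The submitters' processing notes name build mm10, Bismark, Bowtie and Picard, without versions or roles. Per the file headers, each deposited file lists cytosines with a count of calls and the percent read as C or T. No listed cytosine has fewer than 10 calls, so shallower cytosines are not seen and the total of listed calls is not the full depth. Repeated reads from small inputs are not independent molecules, so intervals cover counting error only.

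Methylated calls were recovered as count times percent of C, the strands of a CpG were added, and calls were summed over tiles of 1000 bp. A library's level in a tile thus covers only the CpGs listed in that library. In Control 5 and Control 8, 4 and 8 repeated entries were dropped. Members and gene lists were chosen with earlier results of these data known. Tiles in which every library had 3 CpGs and 20 calls or more (1 member fell short) were fitted with a quasi-binomial logistic model. Dispersions were shrunk by the squeezeVar formulas (limma 3.58.1, R 4.3.3) with a floor of 1, groups were compared by an F test, and p was adjusted by Benjamini-Hochberg over all tiles. The fit was tested on simulated data first. Gene names and bounds came from RefSeq GRCm38.p6, without strand or exons, and a tile took the name of the shortest gene it overlaps or the nearest within 10 kb. Of the listed genes only Taf7l was not matched.

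The text names, by rule, the member with the most CpGs at each imprinted locus and per other list or family, the 5 members of smallest p, the 5 widest, the 5 steadiest, the 5 longest runs and the 3 tiles on each side of each bound. Alternatives covered the minimum of calls, the level rule, CpG density, tile bounds, deep cytosines, moderation, limma, a depth covariate, the replicate block and leaving out libraries. Control and Susceptible libraries share 2 numbers, and the labels do not say what a number marks. No batch is given in the labels.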

Additional observations from a re-analysis of the deposited data

Results flagged for a closer look

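In 11 of 130 groups of values looked at, a library stood apart from the others of its group by Dixon's criterion. Chance meets it in about 1 in 20 groups, but that level does not apply to tiles chosen on these same values, as for the widest or smallest SD (Slc35e2, Supt4a and Kdm6b) or the smallest p (Gm30875), or given after their values were seen (Ppp1r1b). The groups were the Control and the Susceptible values of the 52 tiles named by the rule, of 7 other tiles given by library (Ect2l, Bmf, Drd1, Drd2, Ppp1r1b, Rn18s-rs5 and Filip1l) and of 6 measures per library. Control 3, Control 4, Control 5 and Susceptible 7 stood apart in 2 tiles each, and Control 8, Susceptible 3 and Susceptible 6 in 1 each.

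Near imprinted genes the widest gap was in Nnat. In the Nnat tile (chr2:157560001-157561000) Control 8 read 24.0%, below the other Control libraries at 51.3 to 57.7%. In the Magel2 tile (chr7:62377001-62378000) Control 3 read 44.6%, above the other Control libraries at 32.0 to 35.6%. In the Inpp5f tile (chr7:128688001-128689000) Susceptible 7 read 44.7%, below the other Susceptible libraries at 55.1 to 57.2%. In the Gm39273 tile (chr8:122870001-122871000) Control 4 read 57.9%, below the other Control libraries at 63.4 to 65.1%. In the Igf2r tile (chr17:12741001-12742000) Susceptible 7 read 75.5%, above the other Susceptible libraries at 60.3 to 60.6%.

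Outside the imprinted list 6 of these tiles met the criterion. In the Gm30875 tile (chr11:79974001-79975000) Control 3 read 49.9%, above the other Control libraries at 41.6 to 43.9%. In the Slc35e2 tile (chr4:155598001-155599000) Control 5 read 14.5%, below the other Control libraries at 68.6 to 89.5%. In the Supt4a tile (chr11:87738001-87739000) Susceptible 3 read 21.2%, below the other Susceptible libraries at 51.7 to 57.5%. In the Kdm6b tile (chr11:69399001-69400000) Susceptible 6 read 55.0%, below the other Susceptible libraries at 58.6 to 59.0%. In the Olfr278-ps1 tile (chr15:98504001-98505000) Control 5 read 59.5%, above the other Control libraries at 35.2 to 40.5%. In the Ppp1r1b tile (chr11:98352001-98353000) Control 4 read 78.05%, above the other Control libraries at 40.96 to 50.8%.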

How the results depend on the processing

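The number of members was 6059 at a pooled Control level of 40 to 60% and 1703 with at least 30 CpGs, and 6441 to 9687 under the other alternatives. It was 9319 to 9547 when a library was left out. The share near imprinted genes was 1.12% with at least 20 calls per cytosine and 3.35% with at least 30 CpGs, 0.807 to 1.06% otherwise and 0.838 to 0.868% with a library left out. The median SD stayed between 5.94 and 10.02 points, and between 7.60 and 8.68 points with a library left out. The share of members at an unadjusted p under 0.05 was 4.60% without moderation, 1.11% with limma and 22.9% without Control 5, Control 8 and Susceptible 7 (6.68% of all tiles), and 9.84 (2.83% of all tiles, without Susceptible 6) to 16.3% (3.87%, without Susceptible 3) with a library left out. No member was called with any single library left out (0 to 0). Without those 3 libraries, a choice made after seeing the data, 7 tiles that met the rule in the remaining libraries were called. Of these, the tiles on chromosome 5 from 30745001 and on chromosome 14 from 45636001 were not members with 9 libraries. The mean difference, Susceptible minus Control, was -0.621 points when the pooled Susceptible level chose the members, -1.55 with at least 30 CpGs and 1.42 without the 3 libraries, and -0.770 to 1.19 with a library left out. The cause of these shifts was not tested. The difference of the chromosome 3 tile from 5860001 turned to 0.880 points without the most covered cytosines.

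With the replicate number as a block, 8 members were called, among 28 tiles in all, and 18.5% were at an unadjusted p under 0.05, against 5.17% of all tiles. That fit held only Control 2, Control 3, Susceptible 2 and Susceptible 3, and the other libraries were left out of it. It left almost nothing to estimate the dispersion of a tile, so its calls lean on moderation. Deviations of same-numbered libraries had correlations of 0.0259 and -0.0175. Those of differently numbered libraries ran from -0.0958 to 0.1325. These values do not tell what a number marks, which was not tested. Depth limits single libraries: a member had as few as 100 calls in a library, and cytosines under 10 calls are not seen.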
